A study of Mus musculus with 64 samples.

Results

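The CC chemokines described here are 10 genes, Ccl2, Ccl7, Ccl12, Ccl3, Ccl4, Ccl5, Ccl9, Ccl17, Ccl22 and Ccl24, taken by their symbols, not by their values, from the 55487 genes counted in each library. All 10 were found in the count files, and 9 of them passed the filter on low counts that left 14537 genes for testing, so Ccl24 is given as counts. Ccl17 reached the level of the filter in activated libraries alone. The RNA came from bone marrow-derived macrophages (BMMs), which are macrophages grown from mouse bone marrow with macrophage colony-stimulating factor from L929 cells, of young adult female Ahr+/+ mice and Ahr-/- mice, the latter lacking the aryl hydrocarbon receptor (AhR) in every cell rather than in macrophages alone. The Ahr-/- line was backcrossed to the C57BL/6JRj strain of the Ahr+/+ mice, and 4 mice of each genotype were used.

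Every culture was first kept for 6 h with the AhR ligand benzo(a)pyrene (BaP, 1 µM), with the AhR ligand indole-3-carbinol (I3C, 10 µM) or with 0.01% DMSO as vehicle. Salmonella enterica serovar Enteritidis killed by heat (hk S.E.), a source of bacterial patterns for pattern recognition receptors, was then added for 3 h or 20 h. In each genotype and at each time there were 4 groups of 4 libraries, namely DMSO without hk S.E. (called unactivated), DMSO with hk S.E. (called activated), I3C with hk S.E. and BaP with hk S.E., which makes 16 groups and 64 libraries. No group had a ligand without hk S.E., so ligand effects were measured in activated BMMs.

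CC chemokines are small secreted proteins named for a pair of adjacent cysteines near their amino terminus, and they bind G protein-coupled receptors on leukocytes and direct their migration. Ccl2, Ccl7 and Ccl12 are ligands of Ccr2 and attract monocytes, Ccl3, Ccl5 and Ccl9 are ligands of Ccr1, Ccl17 and Ccl22 are ligands of Ccr4, and Ccl24 is a ligand of Ccr3. Macrophages are a known source of many of them after pattern recognition, and several of their promoters bind NF-κB.

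In the GENCODE annotation of GRCm38, Ccl2 (chr11:82035571-82037453), Ccl7 (chr11:82045712-82047525) and Ccl12 (chr11:82101845-82103400) lie in this order on the plus strand of chromosome 11, with 8258 bases between Ccl2 and Ccl7 and 54319 bases between Ccl7 and Ccl12. Ccl5 (chr11:83525778-83530518), Ccl9 (chr11:83572919-83578636), Ccl3 (chr11:83647844-83649355) and Ccl4 (chr11:83662584-83664683) follow, with 1422377 bases between Ccl12 and Ccl5, all on the minus strand except Ccl4. Ccl22 (chr8:94745590-94751699) and Ccl17 (chr8:94810453-94812036) lie 58753 bases apart on chromosome 8, and Ccl24 (chr5:135569937-135573049) lies alone on chromosome 5.

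The coding sequence around the paired cysteines shows the family feature and also how far these neighbours have diverged, which bears on whether reads can be told apart. In each 36-base window below, given for 5 members, read 5′ to 3′ on the coding strand of exon 2, the capitals mark the codons of the adjacent cysteines.
Ccl2, codons at chr11:82036506-82036511: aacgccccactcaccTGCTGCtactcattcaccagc
Ccl7, codons at chr11:82046538-82046543: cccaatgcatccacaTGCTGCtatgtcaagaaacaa
Ccl12, codons at chr11:82102634-82102639: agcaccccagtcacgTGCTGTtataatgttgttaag
Ccl4, codons at chr11:83663482-83663487: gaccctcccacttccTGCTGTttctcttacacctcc
Ccl5, codons at chr11:83529242-83529247: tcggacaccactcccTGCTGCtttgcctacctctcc
The windows of Ccl2 and Ccl12 shared 20 of 36 bases, and those of Ccl2 and Ccl7 shared 15. Those of Ccl2 and Ccl4 shared 22, as did those of Ccl4 and Ccl5. The most alike of all members were Ccl3 and Ccl4, with 26. Over whole transcripts, the longest exact run shared by a member and another CC chemokine was 25 bases (Ccl9 and Ccl6), followed by 23 bases (Ccl2 and Ccl7). Ccl2 was the sole member to overlap another gene, Gm17268 on the opposite strand, and the counting used strand.

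The libraries held 12152496 to 50644601 counts on genes, apart from the fourth library of unactivated Ahr+/+ BMMs at 20 h with 233047331. All 7 macrophage markers checked (among them Adgre1, Csf1r and Cd68) passed the filter in these BMMs, with a summed level between 5494 and 11489.9 CPM (CPM being counts divided by the scaled library size, the usual unit for depth-corrected counts). Lymphocyte and NK cell markers (8) and basophil, mast cell and eosinophil markers (6) all failed it, with summed levels of at most 1.19 and 0.703 CPM, and 2 of 8 dendritic cell markers passed with a sum of at most 2.93 CPM. Of 8 neutrophil markers 5 passed, and their sum ran from 12.7 to 65.9 CPM in unactivated and from 18.1 to 273 CPM in activated libraries, led by S100a9. Of 6 fibroblast markers 3 passed, with sums up to 3.06 CPM in Ahr+/+ and up to 8.35 CPM in Ahr-/- libraries. No marker of these lists was at 0 in all 64 libraries, and their part in the results was not tested. Ahr transcripts were counted in the Ahr-/- libraries at a higher level than in Ahr+/+ libraries (6.63 against 3.17 CPM unactivated at 3 h), and since the deleted stretch is not given in the sources used here, that count checks nothing. Ahrr, a target of AhR, reached 18.7 CPM in Ahr+/+ and 0.911 CPM in Ahr-/- BMMs after BaP at 20 h.

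**Figure D1:**
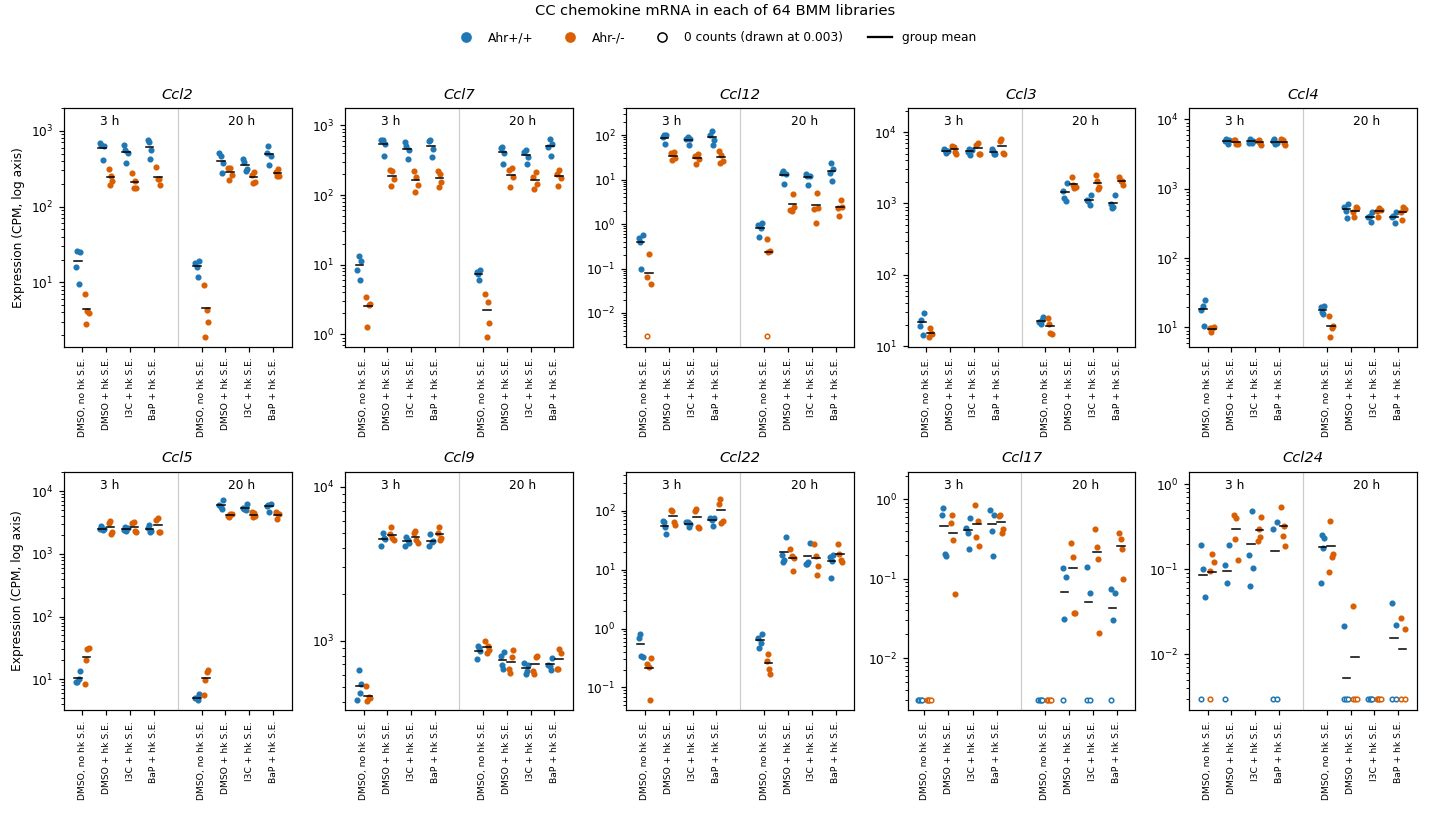
Expression of each of the 10 CC chemokines in all 64 libraries, in CPM on a log axis, by time, exposure and genotype (4 libraries per group, bars are group means, open circles mark libraries with 0 counts). Every member but Ccl24 sits higher with hk S.E. than without it at 3 h, Ccl9 is back near its unactivated level at 20 h, and Ccl2, Ccl7 and Ccl12 have lower group means in Ahr-/- than in Ahr+/+ BMMs in all conditions.

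Before activation, Ccl9 mRNA was by far the most abundant of the 10. To compare genes of different length, levels were divided by the exon length of each gene, which gives CPM per kb. In unactivated Ahr+/+ BMMs at 3 h, Ccl9 stood at 167 ± 33.2 CPM per kb (SD, n = 4), or 63.2% of the summed level of the 10 genes. Ccl3 (28.2 ± 8.27), Ccl4 (28.0 ± 9.22), Ccl2 (16.7 ± 6.93), Ccl7 (12.3 ± 4.09) and Ccl5 (10.8 ± 2.22) came next, and each overlapped its neighbour in that order. Ccl12 (0.724 ± 0.382), Ccl22 (0.232 ± 0.103) and Ccl24 (0.0661 ± 0.0645) were below 1 CPM per kb, and Ccl17 had 0 counts in all 16 unactivated libraries.

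With 3 h of hk S.E. the order changed, and Ccl4 and Ccl3 led. In activated Ahr+/+ BMMs at 3 h, Ccl4 reached 7408 ± 481 and Ccl3 7097 ± 397 CPM per kb, ranges that overlapped, and they made up 37.0% and 35.4% of the summed level. Ccl5 followed with 13.2% and Ccl9 with 7.54%. By 20 h, Ccl5 led with 6275 ± 829.5 CPM per kb in Ahr+/+ and 4339.8 ± 240.0 in Ahr-/- BMMs, or 62.4% and 52.5% of the sum, and Ccl4 had come down to 7.57% and 8.75%. Taking the length of the longest transcript in place of all exons moved the level of Ccl5 beyond its SD in 15 of the 16 groups (to 9018 CPM per kb in activated Ahr+/+ BMMs at 20 h) and that of no other member. Together the 10 genes took 0.0588% of all counts in unactivated and 1.87% in activated Ahr+/+ BMMs at 3 h.

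**Figure D2:**
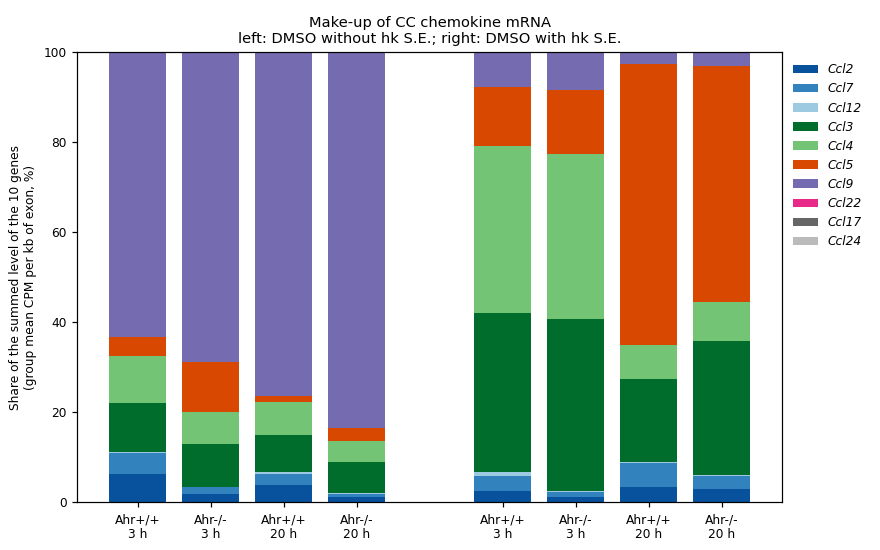
Share of each CC chemokine in the summed level of the 10 genes, from group mean CPM per kb of exon, in unactivated (left) and activated (right) DMSO cultures (n = 4 libraries per bar). Ccl9 holds 63.2% to 83.3% without hk S.E., Ccl3 and Ccl4 lead at 3 h with hk S.E., and Ccl5 leads at 20 h.

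Activation asked what hk S.E. did after DMSO, in each genotype and at each time. Ccl17 passed the filter only through the activated groups, so its test had to favour a rise, and it is kept out of the counts of this comparison. At 3 h, the other 8 members all rose in both genotypes (edgeR's quasi-likelihood test, Benjamini-Hochberg adjusted p below 0.01), where 24.2% (Ahr+/+) and 25.5% (Ahr-/-) of all genes tested were called higher. At 20 h, 7 of these 8 were higher in each genotype, where 29.9% and 28.3% of all genes were called higher, and the exception was Ccl9. The median log2 fold change of the 8 members was 7.19 in Ahr+/+ BMMs at 3 h against -0.10 over all genes, and 7.71 against -0.08 in Ahr-/- BMMs. At 20 h it was 4.84 in Ahr+/+ and 6.00 in Ahr-/- BMMs. Upper-quartile scaling shifted the median of all genes by -0.16, -0.18, -0.16 and -0.16 (Ahr+/+ and Ahr-/- at 3 h, then at 20 h) and moved the share of higher among all called genes in Ahr-/- BMMs at 20 h from 52.1% to 41.2%.

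Among the Ccr2 ligands, Ccl2 (monocyte chemoattractant protein 1) stood at 15.7, 25.7, 9.42 and 25.2 CPM in the 4 unactivated Ahr+/+ libraries at 3 h, replicates 1 to 4, and at 682, 649.6, 408 and 625 CPM in the activated ones. The groups were far apart, replicate 3 being the lowest in each. The rise was 30.9-fold (log2 fold change 4.95, SE 0.31, adjusted p = 1.54e-20), and 24.5-fold at 20 h (log2 fold change 4.62, SE 0.31, adjusted p = 1.2e-19). Ccl7, which shares the Ccr2 receptor, went from 8.52, 13.5, 5.97 and 11.2 CPM to 619, 615, 358 and 546 CPM. It rose 53.9-fold at 3 h (log2 fold change 5.75, SE 0.32, adjusted p = 7.22e-23) and was 55.6-fold higher at 20 h (log2 fold change 5.80, SE 0.32, adjusted p = 4.92e-23), so that its difference from unactivated BMMs was about the same at the later time. Ccl12, the third Ccr2 ligand, was close to absent before activation, with 0.487, 0.401, 0.0986 and 0.569 CPM, and reached 90.5, 99.5, 61.6 and 98.1 CPM. Its rise of 221-fold at 3 h (log2 fold change 7.78, SE 0.42, adjusted p = 2.07e-23) was followed by 14.4-fold at 20 h (log2 fold change 3.85, SE 0.34, adjusted p = 1.07e-14).

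Ccl3 and Ccl4, the macrophage inflammatory proteins 1-alpha and 1-beta, rose most in CPM at 3 h. Ccl3 stood at 19.0, 23.7, 14.5 and 29.3 CPM without and at 5722, 5610.2, 5034 and 5378 CPM with hk S.E. in Ahr+/+ BMMs at 3 h. Ccl4 stood at 17.7, 20.5, 10.6 and 25.1 CPM and 4858, 5250.5, 4483 and 4966 CPM in the same libraries. For neither gene did an activated library come near an unactivated one. The rises were 251-fold for Ccl3 (log2 fold change 7.97, SE 0.24, adjusted p = 3.81e-35) and 264-fold for Ccl4 (log2 fold change 8.04, SE 0.21, adjusted p = 1.01e-37), and at 20 h they were 62.4-fold and 27.8-fold. Ccl5, known as RANTES and a ligand of Ccr1 and Ccr3, went from 8.91, 9.06, 10.0 and 13.5 CPM to 2479.5, 2768, 2404 and 2501 CPM at 3 h. At 20 h it stood at 4.99, 5.00, 4.61 and 5.78 CPM without and 6018, 5684, 5268 and 7126 CPM with hk S.E. in Ahr+/+ BMMs. That is a rise of 245-fold at 3 h (log2 fold change 7.94, SE 0.28, adjusted p = 1.58e-31) and of 1171-fold at 20 h (log2 fold change 10.19, SE 0.31, adjusted p = 1.51e-34), the largest of the members at the later time.

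Ccl9, also called MIP-1 gamma, was the member already high before activation, with 408, 642, 456 and 523 CPM in unactivated Ahr+/+ BMMs at 3 h. With hk S.E. it reached 4145, 5026, 4634 and 4592 CPM, a 9.06-fold rise (log2 fold change 3.18, SE 0.12, adjusted p = 4.75e-30) and the smallest of the 8. At 20 h it stood at 762, 923, 895 and 854 CPM without and 789, 689, 654 and 849 CPM with hk S.E., ranges that overlapped, and no change was called in Ahr+/+ BMMs (log2 fold change -0.20, SE 0.11, adjusted p = 0.105) or in Ahr-/- BMMs (log2 fold change -0.31, SE 0.11, adjusted p = 0.0161). The lower value at 20 h in Ahr-/- BMMs lay near the threshold and was called under DESeq2 (-0.35, adjusted p = 0.00494), under limma (-0.36, adjusted p = 0.00481), with size-factor scaling (-0.35, adjusted p = 0.00693), with a minimum count of 50 (-0.34, adjusted p = 0.00659) and without replicate 4 of the activated group (-0.40, adjusted p = 0.00309), and under upper-quartile scaling Ccl9 was called lower in both genotypes (-0.37, adjusted p = 0.00176 in Ahr+/+ and -0.47, adjusted p = 8.75e-05 in Ahr-/- BMMs).

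At 3 h, the Ccr4 ligands had the lowest levels per kb of exon among the members that rose. Ccl22 (macrophage-derived chemokine) stood at 0.682, 0.803, 0.345 and 0.332 CPM without and 66.4, 64.8, 52.7 and 40.8 CPM with hk S.E. in Ahr+/+ BMMs at 3 h. The groups did not overlap, and the rise was 96.7-fold (log2 fold change 6.60, SE 0.46, adjusted p = 8.88e-19) at 3 h and 29.3-fold at 20 h (log2 fold change 4.87, SE 0.41, adjusted p = 1.37e-15). Ccl17 (thymus and activation-regulated chemokine) had 0 counts in each of the 16 unactivated libraries, while activated Ahr+/+ libraries at 3 h held 9, 14, 3 and 3 counts (0.633, 0.792, 0.208 and 0.194 CPM). Taking 3 counts over the unactivated group as the limit that 0 counts allow, Ccl17 was at least 15.9-fold higher with hk S.E. in Ahr+/+ and at least 14.8-fold higher in Ahr-/- BMMs at 3 h (adjusted p = 1.82e-05 and 2.29e-05), and at least 9.04-fold and 5.86-fold higher at 20 h (adjusted p = 0.00164 and 0.00174). These bounds cover counting error only, and since the filter admitted Ccl17 through its activated libraries alone, its tests add no support to them. The calls at 20 h rest on 9 and 17 counts and were lost without replicate 4 of the unactivated (adjusted p = 0.0423) or of the activated (adjusted p = 0.0132) Ahr+/+ libraries and without replicate 1 of the activated Ahr-/- libraries (adjusted p = 0.013), and the Ahr+/+ call was lost under limma (adjusted p = 0.0666).

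Ccl24 (eotaxin-2, a ligand of the eosinophil receptor Ccr3) was near the detection limit throughout. At 3 h, 20 counts were found over 8 unactivated and 95 counts over 24 activated libraries, at no more than 0.543 CPM in any of them. At 20 h, all 8 unactivated libraries held counts (107 in all, 69 of them in the library of 233047331 counts), whereas 18 of 24 activated libraries held none and the others summed to 6 counts. Without the filter, Ccl24 was called lower with hk S.E. at 20 h in Ahr+/+ (log2 fold change -4.07, SE 0.94, adjusted p = 0.000244) and Ahr-/- BMMs (-3.92, SE 0.97, adjusted p = 0.000708), values that depend on the prior count at such low numbers.

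**Figure D3:**
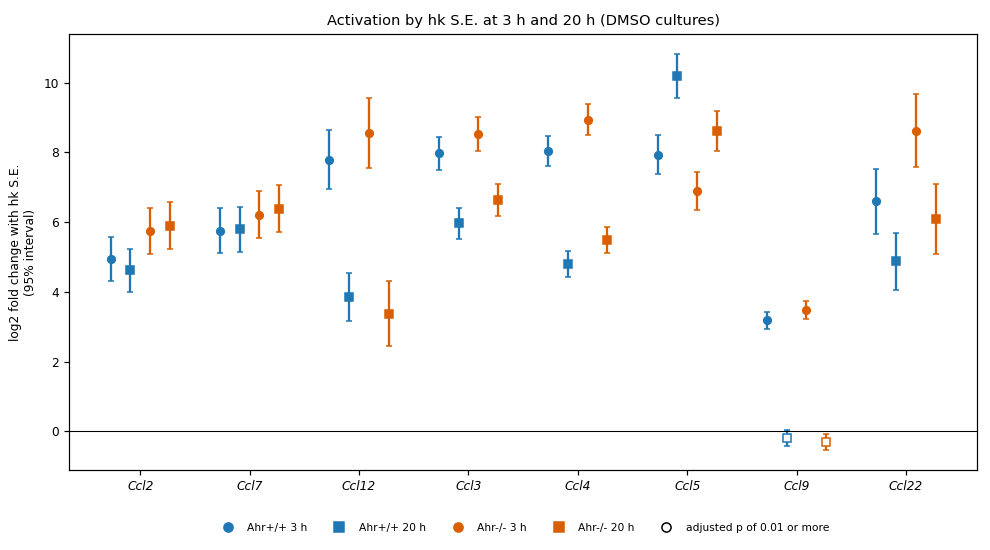
Log2 fold change with hk S.E. after DMSO at 3 h (circles) and 20 h (squares) in Ahr+/+ and Ahr-/- BMMs for 8 members, with 95% intervals from the edgeR fit (n = 4 libraries per group, open symbols not called). Ccl2 and Ccl7 have like values at both times, Ccl12, Ccl3, Ccl4 and Ccl22 are lower at 20 h, Ccl5 is higher at 20 h, and Ccl9 falls from 3.18 and 3.48 to near 0.

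The second comparison was of 20 h with 3 h. Among activated BMMs, 7 of 9 members changed in Ahr+/+ (1 higher, 6 lower, where 59.4% of all genes were called in either direction) and 6 of 9 in Ahr-/- BMMs (1 higher, 5 lower, against 56.0%), shares near the background. Ccl4 fell most among the abundant members, from 4889 ± 317 CPM to 502 ± 100.2 CPM in Ahr+/+ (SD, n = 4; log2 fold change -3.28, SE 0.17, adjusted p = 2.83e-24) and likewise in Ahr-/- BMMs (log2 fold change -3.31, SE 0.17, adjusted p = 2.64e-24). Ccl9 fell by 2.63 and 2.74 on the log2 scale (SE 0.12 and 0.12), Ccl12 fell by 2.79 and 3.65 (SE 0.29 and 0.32), and Ccl3 fell by 1.92 and 1.60 (SE 0.18 and 0.18). Activated levels of Ccl3 at 20 h were 1509, 1197, 1072 and 1954 CPM in Ahr+/+ and 2382, 1795, 1642 and 1709 CPM in Ahr-/- BMMs, still far above the 15.1 to 25.6 CPM of unactivated libraries at that time. Ccl22 also fell in both genotypes (log2 fold change -1.46, SE 0.32, adjusted p = 6.81e-05 in Ahr+/+; log2 fold change -2.35, SE 0.33, adjusted p = 1.04e-08 in Ahr-/-). Ccl17 was lower at 20 h in Ahr+/+ BMMs (adjusted p = 0.00187, and 0.017 without replicate 2 of the activated group at 3 h), and in Ahr-/- BMMs it missed the threshold (adjusted p = 0.0399). It is 1 of the 6 lower members counted in Ahr+/+ BMMs. Its highest level in activated libraries was 0.848 CPM at 3 h and 0.430 CPM at 20 h. Since Ccl17 passed the filter mainly through the 3 h groups, its test leaned towards a fall and adds no support.

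Ccl5 was the member that went up, from 2538 ± 159 CPM to 6024 ± 796 CPM in activated Ahr+/+ BMMs (log2 fold change 1.25, SE 0.21, adjusted p = 7.07e-07) and from 2666 ± 611 CPM to 4166 ± 230.4 CPM in activated Ahr-/- BMMs (log2 fold change 0.64, SE 0.21, adjusted p = 0.00587). The call in Ahr-/- BMMs was lost without replicate 3 (0.50, adjusted p = 0.0454) or 4 (0.53, adjusted p = 0.0377) of the 3 h group, without replicate 3 (0.63, adjusted p = 0.013) or 4 (0.62, adjusted p = 0.0146) of the 20 h group, under DESeq2 (0.55, adjusted p = 0.0176) and limma (0.57, adjusted p = 0.0113), with size-factor scaling (0.55, adjusted p = 0.0197) and without the filter (0.67, adjusted p = 0.0114). Ccl2 and Ccl7 were not called in either genotype, with log2 fold change -0.56, SE 0.26, adjusted p = 0.058 for Ccl2 and log2 fold change -0.37, SE 0.26, adjusted p = 0.198 for Ccl7 in Ahr+/+ BMMs. With the replicate number as a block within genotype, edgeR called both in Ahr+/+ BMMs (adjusted p = 0.000824 and 0.00109).

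Without hk S.E., 2 of 9 members differed between the times in each genotype, against 6.04% of all genes in Ahr+/+ and 6.98% in Ahr-/- BMMs. Ccl17, among the 9, had 0 counts at both times and could not be called. Ccl9 rose with time in culture, from 507 ± 101 CPM to 858 ± 70.7 CPM in Ahr+/+ BMMs (log2 fold change 0.76, SE 0.11, adjusted p = 2.62e-06) and from 439 ± 46.7 CPM to 904 ± 70.7 CPM in Ahr-/- BMMs (log2 fold change 1.04, SE 0.11, adjusted p = 1.67e-09). Ccl5 fell from 10.4 ± 2.13 CPM to 5.09 ± 0.489 CPM in Ahr+/+ (log2 fold change -1.01, SE 0.23, adjusted p = 0.0016) and from 22.4 ± 10.6 CPM to 10.6 ± 3.81 CPM in Ahr-/- BMMs (log2 fold change -1.07, SE 0.22, adjusted p = 0.000389), where the ranges overlapped. The Ahr+/+ call was lost without replicate 4 of the 3 h group (-0.86, adjusted p = 0.0155), and the Ahr-/- call was lost with the number series of the library identifiers as a covariate (-0.72, adjusted p = 0.141).

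The change of the activation effect between the times was tested as such. It differed for 5 of 9 members in Ahr+/+ and for 5 of 9 in Ahr-/- BMMs, where 47.8% and 44.6% of all genes were called, and Ccl12, Ccl3, Ccl4, Ccl9 and Ccl5 made up the 5 in each genotype. Ccl17 is among the 9, though with 0 counts in unactivated libraries it has no baseline for this test. Ccl12 had the largest change in Ahr-/- BMMs (log2 fold change -5.18, SE 0.91, adjusted p = 2.88e-06), and Ccl9 and Ccl4 followed (log2 -3.78 and -3.45). Ccl5 alone changed upward, by 2.25 in Ahr+/+ (SE 0.31) and 1.71 in Ahr-/- BMMs (SE 0.30). Ccl2 and Ccl7 were not called, with 95% intervals of -1.09 to 0.43 and -0.71 to 0.81 in Ahr+/+ BMMs on the log2 scale. Ccl22 was at -1.72 (adjusted p = 0.0179) and -2.52 (adjusted p = 0.0237), and it was called in both genotypes by DESeq2 (adjusted p = 0.00246 and 5.95e-05) and by limma (adjusted p = 0.000544 and 1.3e-06). In Ahr+/+ BMMs it was also called without replicate 4 of the activated group at 3 h (-1.92, adjusted p = 0.00854) or at 20 h (-2.14, adjusted p = 0.00265), and in Ahr-/- BMMs when the compared groups were fitted alone (-2.59, adjusted p = 0.00284).

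The third question was whether Ahr-/- BMMs differed from Ahr+/+ BMMs without an added ligand. In unactivated BMMs, 4 of 9 members differed at 3 h (1 higher, 3 lower in Ahr-/-) and the same 4 at 20 h, against 1.22% and 0.702% of all genes called in either direction. In activated BMMs, 3 of 9 were lower in Ahr-/- at 3 h and 2 of 9 at 20 h, where 2.85% and 12.4% of all genes were called. The 3 Ccr2 ligands carried most of these calls. In unactivated BMMs, Ccl17, among the 9, had 0 counts in both genotypes and could not be called. As the genotypes came from different mice, the replicate number pairs nothing across them. In bulk RNA, fewer expressing cells and less RNA per cell cannot be told apart.

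Ccl2 stood at 15.7, 25.7, 9.42 and 25.2 CPM in unactivated Ahr+/+ and at 7.06, 2.82, 4.20 and 3.89 CPM in unactivated Ahr-/- BMMs at 3 h. No Ahr-/- library reached the lowest Ahr+/+ library, and the level was 4.22-fold lower (log2 fold change -2.08, SE 0.30, adjusted p = 7.02e-06). At 20 h without hk S.E. it was 3.48-fold lower (log2 fold change -1.80, SE 0.29, adjusted p = 0.000108). With hk S.E., 682, 649.6, 408 and 625 CPM in Ahr+/+ stood against 309, 192, 253 and 219 CPM in Ahr-/- BMMs at 3 h, again without overlap and 2.43-fold lower (log2 fold change -1.28, SE 0.27, adjusted p = 0.00144), a call lost without replicate 2 of the Ahr-/- group (-1.18, adjusted p = 0.0168). After 20 h of hk S.E. the groups overlapped, 502, 458, 278 and 370.4 against 318, 225, 323 and 259 CPM, and no difference was called (log2 fold change -0.52, SE 0.26, adjusted p = 0.169).

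Ccl7 was lower in Ahr-/- BMMs in all 4 of these comparisons. In unactivated BMMs it stood at 8.52, 13.5, 5.97 and 11.2 against 3.42, 1.28, 2.62 and 2.76 CPM at 3 h, and in activated BMMs at 480.5, 485, 279.5 and 405 against 229.9, 130.2, 248 and 179 CPM at 20 h. The groups did not overlap at either point. Differences ran from 3.91-fold at 3 h without hk S.E. (log2 fold change -1.97, SE 0.31, adjusted p = 5.64e-05) to 2.10-fold at 20 h with it (log2 fold change -1.07, SE 0.26, adjusted p = 0.00182). The call for unactivated BMMs at 20 h was lost without replicate 4 of the Ahr-/- group (-1.45, adjusted p = 0.0166), and the call for activated BMMs at 20 h without replicate 2 of the Ahr-/- group (-0.91, adjusted p = 0.017) or when its 8 libraries were fitted alone (-1.04, adjusted p = 0.0163).

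By edgeR, Ccl12 was called lower in Ahr-/- BMMs after activation only, though its means were lower without hk S.E. too. With hk S.E. at 3 h it stood at 90.5, 99.5, 61.6 and 98.1 CPM in Ahr+/+ and 38.9, 27.5, 40.7 and 30.9 CPM in Ahr-/- BMMs. With hk S.E. at 20 h it stood at 14.2, 15.4, 7.92 and 13.2 against 2.06, 1.95, 4.64 and 2.45 CPM. Every Ahr-/- library was below every Ahr+/+ library at both times. The level was 2.53-fold lower at 3 h (log2 fold change -1.34, SE 0.28, adjusted p = 0.00124) and 4.60-fold lower at 20 h (log2 fold change -2.20, SE 0.31, adjusted p = 3.88e-07). The 3 h call was lost without replicate 2 of the Ahr+/+ (-1.27, adjusted p = 0.0105) or of the Ahr-/- group (-1.24, adjusted p = 0.0158). At 20 h all Ahr-/- libraries carried identifiers of another number series than the activated Ahr+/+ libraries. Within that comparison the series and the genotype cannot be told apart for any gene, Ccl7 and Ccl5 included. With the series as a covariate over all groups Ccl12 was at -2.35 (adjusted p = 0.0159). Without hk S.E., Ccl12 was near the detection limit and its differences of -2.11 at 3 h and -1.73 at 20 h missed the threshold (adjusted p = 0.298 and 0.0627), the latter being called by DESeq2 (-1.69, adjusted p = 0.00467).

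With the ligand-exposed groups, there were 8 matched conditions in which the genotypes could be set side by side. Ccl7 lay lower in Ahr-/- than in Ahr+/+ BMMs without any overlap in 8 of these 8, Ccl2 in 7 and Ccl12 in 7. Over all genes tested, 0.399% were lower without overlap in at least 7 and 0.165% in all 8 conditions. In single conditions the share of all genes was 4.02% (unactivated) and 6.49% (activated) at 3 h and 5.74% and 11.9% at 20 h, and 6.71%, 6.60%, 13.3% and 15.9% with I3C at 3 h, BaP at 3 h, I3C at 20 h and BaP at 20 h. The ratio of the Ahr-/- to the Ahr+/+ mean ran from 0.257 to 0.477 for Ccl7, from 0.236 to 0.699 for Ccl2 and from 0.154 to 0.395 for Ccl12 over the 8 conditions. As 4 mice of each genotype gave the libraries of all 8 conditions, the conditions share mice and are not separate tests.

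Ccl4 and Ccl5 differed between genotypes before activation, in opposite directions. Ccl4 stood at 17.7, 20.5, 10.6 and 25.1 CPM in Ahr+/+ and 9.91, 8.65, 9.79 and 9.99 CPM in Ahr-/- BMMs at 3 h without hk S.E. and was 1.93-fold lower (log2 fold change -0.95, SE 0.17, adjusted p = 0.000268), and at 20 h it was 1.70-fold lower (log2 fold change -0.76, SE 0.16, adjusted p = 0.00446). Ccl5 stood at 8.91, 9.06, 10.0 and 13.5 and 8.39, 20.0, 30.0 and 31.2 CPM at 3 h. It was higher in replicates 2, 3 and 4 of the Ahr-/- group than in any Ahr+/+ library, and replicate 1 was below all of them. The differences were 1.11 at 3 h (SE 0.22, adjusted p = 0.0015) and 1.05 at 20 h (SE 0.23, adjusted p = 0.00473) on the log2 scale.

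The Ccl4 call at 3 h held when any single library was left out. For Ccl5 at 3 h the call was lost without replicate 1 (1.05, adjusted p = 0.0114) or 2 (1.05, adjusted p = 0.0133) of Ahr+/+ or without replicate 3 (0.93, adjusted p = 0.0213) or 4 (0.91, adjusted p = 0.0185) of Ahr-/- BMMs. At 20 h it was lost without replicate 1, 2, 3 or 4 of Ahr+/+ (adjusted p = 0.0232, 0.0173, 0.021 and 0.0125) or without replicate 3 or 4 (adjusted p = 0.0353 and 0.0585) of Ahr-/- BMMs. For Ccl4 at 20 h it was lost without replicate 1 (-0.72, adjusted p = 0.0246) or 4 (-0.70, adjusted p = 0.0344) of Ahr+/+ or without replicate 2 (-0.64, adjusted p = 0.0452), 3 (-0.72, adjusted p = 0.0265) or 4 (-0.76, adjusted p = 0.0234) of Ahr-/- BMMs. With the number series of the library identifiers as a covariate, Ccl5 was not called at 3 h (0.93, adjusted p = 0.026) or 20 h (1.31, adjusted p = 0.0113), and at 20 h all 4 unactivated Ahr-/- libraries and 1 of 4 unactivated Ahr+/+ libraries were of the same series. Ccl5 at 20 h was also not called under limma (0.77, adjusted p = 0.0271), and without the filter neither Ccl5 (1.06, adjusted p = 0.0151) nor Ccl4 (-0.75, adjusted p = 0.0104) was called at 20 h. When each unactivated comparison was fitted on its own 8 libraries, none of the 4 members was called (for Ccl2, Ccl7, Ccl4 and Ccl5 in that order, adjusted p = 0.0252, 0.0188, 0.0864 and 0.228 at 3 h and 0.11, 0.0991, 0.162 and 0.132 at 20 h).

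Ccl3 and Ccl9 did not pass the test between genotypes in any of the 4 comparisons, with 95% intervals inside -0.86 to 0.74 for Ccl3 and inside -0.43 to 0.32 for Ccl9 on the log2 scale. Ccl22 was at -1.48 and -1.56 in unactivated BMMs, where both levels were below 1 CPM and the groups did not overlap, and at 0.54 and -0.34 in activated BMMs, none of them called. Ccl17 had 0 counts without hk S.E. in both genotypes, and its levels with hk S.E. overlapped (0.633, 0.792, 0.208 and 0.194 against 0.498, 0.641, 0.309 and 0.0639 CPM at 3 h).

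**Figure D4:**
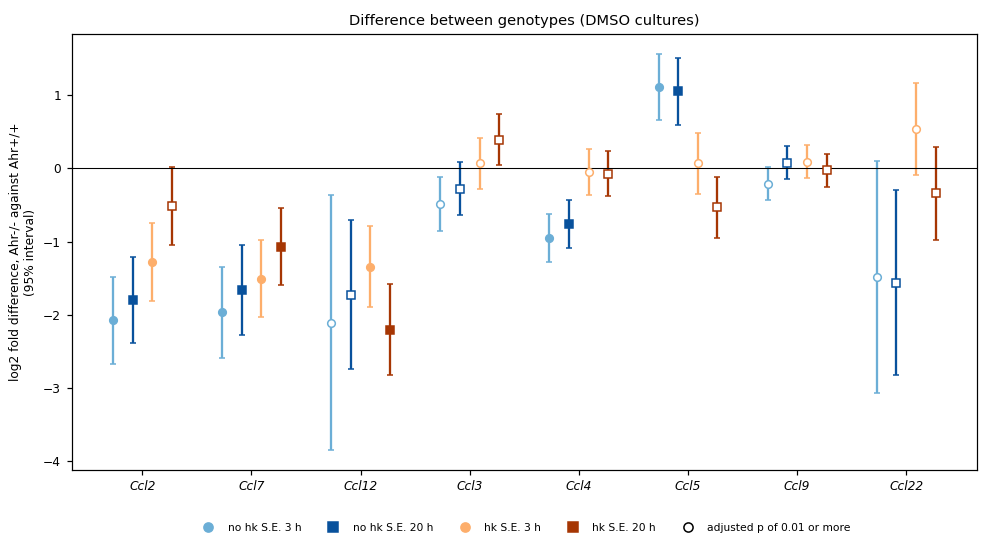
Log2 fold difference of Ahr-/- against Ahr+/+ BMMs in DMSO cultures without (blue) and with (orange) hk S.E. at 3 h (circles) and 20 h (squares), with 95% intervals from the edgeR fit (n = 4 libraries per group, open symbols not called). Ccl2 and Ccl7 lie below 0 at all 4 points, Ccl12 lies lowest at 20 h with hk S.E. among the called values, and Ccl5 lies above 0 without hk S.E. and near or below 0 with it.

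The response to hk S.E. itself was then compared between genotypes. Ccl17 is among the 9 members counted, though with 0 counts in unactivated libraries it has no baseline for this test. At 3 h, 0 of 9 members responded differently by edgeR (5 at an unadjusted p below 0.05, 0 by DESeq2 and 0 by limma), where 0.0138% of all genes were called. At 20 h it was 1 of 9, against 4.42% of all genes. That gene was Ccl5, whose activation log2 fold change was 10.19 in Ahr+/+ and 8.61 in Ahr-/- BMMs (difference -1.58, SE 0.31, adjusted p = 0.000346). Activated Ahr-/- libraries at 20 h held 4066, 3892, 4310.1 and 4397 CPM of Ccl5, all below the 5268 to 7126 CPM of activated Ahr+/+ libraries, while unactivated Ahr-/- libraries held 5.56, 9.77, 12.9 and 14.0 CPM against 4.99, 5.00, 4.61 and 5.78 CPM. The activated groups taken alone differed by -0.53 (SE 0.21, adjusted p = 0.061), which missed the threshold. Over the alternative fits this difference ran from -0.59 to -0.14. The activated libraries of the genotypes at 20 h were of different identifier series, so series and genotype cannot be told apart for these levels. Differences of 1.28 for Ccl2 (SE 0.39, adjusted p = 0.0266) and 0.69 for Ccl4 (SE 0.22, adjusted p = 0.0389) missed the threshold and were called without replicate 1 of unactivated Ahr-/- BMMs at 20 h (1.82, adjusted p = 0.000791 for Ccl2 and 0.88, adjusted p = 0.00657 for Ccl4). The count depends on the fit. With the replicate number as a block within genotype, 1 of 9 members was called at 3 h and 5 of 9 at 20 h, against 0.213% and 10.2% of all genes. Besides Ccl5, those at 20 h were Ccl2, Ccl3, Ccl4 and Ccl7. The labels do not say whether a number marks a mouse.

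The last question was whether BaP or I3C changed the CC chemokines in activated BMMs. In the 8 comparisons with DMSO, 0 of 9 members were called by edgeR, 0 by DESeq2 and 0 by limma, and 4 of the 72 tests had an unadjusted p below 0.05. The authors, with their own DESeq2 fit at 0.01, reported Ccl3 as lower and Ccl7 as higher with BaP at 20 h. They reported both in Ahr+/+ but not in Ahr-/- BMMs, and why the calls differ from those here was not tested. Over all genes tested, BaP called 0.0482% at 3 h and 0.234% at 20 h in Ahr+/+ BMMs and 0.0275% and 0.0138% in Ahr-/- BMMs, and I3C called 0.131%, 0.509%, 0.0206% and 0.206% in the same order.

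The members nearest to a call were Ccl3 and Ccl4 at 20 h in Ahr+/+ BMMs. Ccl3 stood at 988, 878, 879 and 1310.1 CPM with BaP and 1133, 1085, 959 and 1314 CPM with I3C, against 1509, 1197, 1072 and 1954 CPM with DMSO. The means with either ligand were lower than with DMSO, and the groups overlapped. The change with BaP was -0.50 on the log2 scale (95% interval -0.85 to -0.15, SE 0.17, adjusted p = 0.207). With I3C it was -0.35 (95% interval -0.70 to -0.00, adjusted p = 0.868). In an edgeR fit with the replicate number as a block within genotype, the BaP change of Ccl3 was called (-0.49, adjusted p = 0.00643). That fit called 1.84% of all genes, and the labels do not say whether a number marks a mouse. Ccl4 stood at 387, 399, 324 and 469 CPM with BaP, 385, 398, 326 and 457 CPM with I3C and 548, 472, 378 and 609.9 CPM with DMSO. Its changes of -0.35 with BaP (95% interval -0.66 to -0.04) and -0.36 with I3C (95% interval -0.67 to -0.05) were not called (adjusted p = 0.406 and 0.64). In Ahr-/- BMMs at 20 h the same differences were 0.13 and 0.06 for Ccl3 and -0.03 and -0.02 for Ccl4.

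The Ccr2 ligands showed no call against DMSO with either ligand in the fits made here. At 20 h in Ahr+/+ BMMs, Ccl7 stood at 491, 643, 359.7 and 535 CPM with BaP, 410.4, 443, 276 and 350.0 CPM with I3C and 480.5, 485, 279.5 and 405 CPM with DMSO. The 3 groups overlapped, and the intervals were -0.22 to 0.81 for BaP and -0.67 to 0.36 for I3C on the log2 scale. For Ccl5, the leading member at 20 h, the intervals at 20 h were -0.50 to 0.34 and -0.55 to 0.28 in Ahr+/+ BMMs, and for Ccl9 they were -0.32 to 0.13 and -0.40 to 0.05. Ccl9 thus had the narrowest interval of the members, and Ccl17 the widest, -2.56 to 1.42 for BaP at 20 h in Ahr+/+ BMMs, at levels of 0.0734, 0, 0.0299 and 0.0671 CPM. Leaving out Ccl17, the intervals of the other 8 members in Ahr+/+ BMMs stayed within -0.60 to 0.92 for BaP and -0.73 to 0.73 for I3C at 3 h, and within -1.18 to 0.89 and -0.91 to 0.40 at 20 h.

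BaP and I3C were given at different doses, 1 µM and 10 µM, so their direct comparison is of the exposures as applied. By edgeR, 0 of 9 members differed between them in any of the 4 comparisons (0 of 36 tests at an unadjusted p below 0.05, 0 by DESeq2 and 0 by limma), against 0.110% and 0.282% of all genes in Ahr+/+ BMMs at 3 h and 20 h and 0.0206% and 0.179% in Ahr-/- BMMs. At 20 h in Ahr+/+ BMMs, Ccl7 was 0.45 higher with BaP than with I3C on the log2 scale (95% interval -0.06 to 0.97, adjusted p = 0.987). The ligand effects also did not differ between genotypes for any of the 9 members (1 of 36 tests at an unadjusted p below 0.05, 0 by DESeq2 and 0 by limma), where 0.0138% of all genes were called for BaP at 3 h and 0%, 0% and 0% for BaP at 20 h and I3C at 3 h and 20 h. Ccl3 and BaP at 20 h gave that 1 test, with a difference of 0.63 (95% interval 0.13 to 1.12, adjusted p = 0.841). With the replicate number as a block within genotype and time, edgeR called this difference (adjusted p = 0.00759). The same fit called Ccl7 between BaP and I3C in Ahr+/+ BMMs at 20 h (adjusted p = 0.00384).

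**Figure D5:**
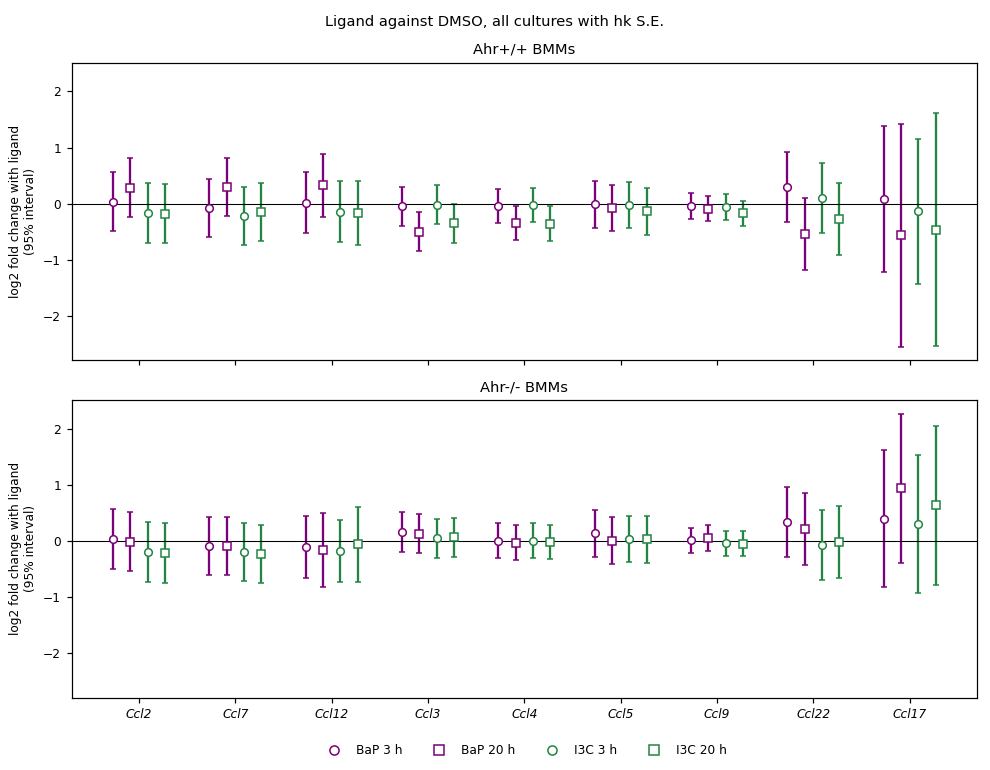
Log2 fold change with BaP (purple) or I3C (green) against DMSO in activated Ahr+/+ (top) and Ahr-/- (bottom) BMMs at 3 h (circles) and 20 h (squares) for the 9 members tested, with 95% intervals from the edgeR fit (n = 4 libraries per group). No value was called, Ccl3 and Ccl4 at 20 h in Ahr+/+ BMMs lie furthest from 0 relative to their intervals, and Ccl17 has the widest intervals.

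For the promoters, RefSeq windows of the 250 bases before the start site (GRCm38.p6) were at hand for 5 of the 10 members, Ccl12, Ccl9, Ccl3, Ccl17 and Ccl22. They were searched for the AhR element core GCGTG, a kappaB-type pattern GGGNNNNNCC, the pattern of an interferon-stimulated response element and a STAT6-type pattern TTCNNNNGAA on either strand, and for the TATA box letters TATAAA on the given strand. GCGTG was found in 1 of the 5 windows (28.2% of all 32851 windows), the kappaB-type pattern in 2 (45.8%), TATAAA in 2 (7.59%), the STAT6-type pattern in 1 (5.85%) and the interferon pattern in 0 (2.98%). Such matches are a description of letters. The windows of Ccl12, the member with the lowest Ahr-/- to Ahr+/+ ratio, of Ccl9, which was high before activation, and of Ccl17, the one that held GCGTG, are printed 5′ to 3′ on the strand of each gene, with the matches in capitals.
Ccl12, chr11:82101595-82101844, plus strand: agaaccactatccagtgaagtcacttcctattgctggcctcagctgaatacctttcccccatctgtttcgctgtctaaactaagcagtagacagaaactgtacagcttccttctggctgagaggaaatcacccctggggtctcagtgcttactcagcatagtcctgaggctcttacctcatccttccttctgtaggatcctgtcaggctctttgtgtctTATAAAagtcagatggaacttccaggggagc
Ccl9, chr11:83578637-83578886, minus strand: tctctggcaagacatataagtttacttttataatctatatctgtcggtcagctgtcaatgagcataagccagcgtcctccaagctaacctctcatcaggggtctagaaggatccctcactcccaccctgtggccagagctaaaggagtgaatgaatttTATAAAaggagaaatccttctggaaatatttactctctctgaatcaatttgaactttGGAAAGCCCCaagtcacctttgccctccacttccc
Ccl17, chr8:94810203-94810452, plus strand: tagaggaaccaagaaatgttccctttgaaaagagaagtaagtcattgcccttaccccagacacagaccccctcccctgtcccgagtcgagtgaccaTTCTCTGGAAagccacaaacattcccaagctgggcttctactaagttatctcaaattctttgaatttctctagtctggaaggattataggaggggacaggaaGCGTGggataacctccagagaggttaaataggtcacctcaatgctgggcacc
In Ccl12 the capitals are TATAAA beginning 31 bases before the start site, in Ccl9 they are TATAAA at 92 and a kappaB-type match at 35 bases before it, and in Ccl17 they are a STAT6-type match at 154 and GCGTG at 52 bases before it. Ccl22 held kappaB-type matches at 162 and 131 bases before its start site, and Ccl3 held no match.

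Of 9 other CC chemokine genes in a list drawn up for comparison, 3 passed the filter, and they did not move as a group. Ccl8, a further gene of the chromosome 11 cluster, passed through its activated libraries alone, so no support is drawn from its rise with hk S.E., from 0.0430 to 3.93 CPM in Ahr+/+ BMMs at 3 h (log2 fold change 6.22, adjusted p = 1.41e-14). Like Ccl7 and Ccl12, Ccl8 was lower in activated Ahr-/- BMMs (-1.97 at 3 h, adjusted p = 0.000384, and -1.90 at 20 h, adjusted p = 9.26e-06). Ccl6, a Ccr1 ligand next to Ccl9, fell with hk S.E. at 20 h from 282 to 41.2 CPM in Ahr+/+ BMMs (-2.78, adjusted p = 6e-27) and likewise in Ahr-/- BMMs (-2.82). Ccl25 rose at 20 h in both genotypes (1.08 and 0.84) from 2.71 and 2.55 CPM.

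Of 14 genes for CC chemokine receptors and related binding proteins, 7 passed the filter. Leaving out Ccr9, which passed through activated libraries alone, 3 of 6 were higher and 1 lower with hk S.E. at 3 h in Ahr+/+ BMMs, and 3 were higher and 2 lower at 20 h, where 56.5% and 58.6% of all genes were called in either direction, so the count of called receptors is near the background. Ccr2, the receptor for Ccl2, Ccl7 and Ccl12, fell from 65.4 to 19.0 CPM at 3 h (-1.78, adjusted p = 2.79e-06) and from 49.9 to 5.23 CPM at 20 h (-3.27, adjusted p = 3.06e-12), opposite in direction to its ligands. Ccrl2, which binds chemerin and is not known to signal, rose from 7.75 to 703 CPM at 3 h (6.50, adjusted p = 9.93e-33). Ccr7, which guides cells to lymph nodes, rose from 0.703 to 26.0 CPM at 20 h (5.04, adjusted p = 2.75e-19), while Ccr3, the receptor for Ccl24, fell from 9.83 to 0.250 CPM (-5.23, adjusted p = 4.2e-14). Between genotypes, 2 receptors were lower in Ahr-/- BMMs in each comparison at 3 h and unactivated at 20 h, Ccr1 (-0.95, adjusted p = 0.000909 unactivated at 3 h) and Ccr7 (-3.44, adjusted p = 0.00148). With hk S.E. at 20 h they were joined by Ccrl2 (-1.03, adjusted p = 7.94e-06). The background share called between genotypes in either direction was 1.22% for unactivated and 2.85% for activated BMMs at the earlier time. At the later time these shares were 0.702% and 12.4%. Ccr7 lay near the detection limit before activation. Only 8 of 16 unactivated libraries reached the filter level of 0.408 CPM for it, which limits the precision of its differences there.

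All 11 genes of an NF-κB list passed the filter. The list holds the 5 subunits, 4 genes of the IκB family with Nfkbiz among them, Bcl3 and the feedback inhibitor Tnfaip3. Of all genes, 24.2% (Ahr+/+) and 25.5% (Ahr-/-) were called higher with hk S.E. at 3 h and 29.9% and 28.3% at 20 h. The 11 listed genes rose at 3 h in both genotypes, and at 20 h 11 did so in Ahr+/+ and 10 in Ahr-/- BMMs. Their median log2 fold change was 3.28 at 3 h and 1.47 at 20 h in Ahr+/+ BMMs, against 3.30 and 1.04 in Ahr-/- BMMs. At 3 h in Ahr+/+ BMMs, Nfkbiz rose by 6.18 (adjusted p = 8.09e-44) and Tnfaip3 by 5.29 (adjusted p = 2.91e-43) on the log2 scale. Between genotypes, Nfkbiz was higher in unactivated Ahr-/- BMMs (0.56 at 3 h, adjusted p = 0.000255), and in activated BMMs at 20 h Nfkb1 was higher (0.42, adjusted p = 0.000502) and Nfkb2 lower (-0.55, adjusted p = 0.000851). Of 12 genes tied to IL-4 and IRF4, which are known to drive Ccl17, Ccl22 and Ccl24 in alternatively activated macrophages, 9 passed, 1 of them (Pdcd1lg2) through activated libraries alone. Of the other 8, 3 rose and 1 fell with hk S.E. at 3 h in Ahr+/+ BMMs and 2 rose and 3 fell at 20 h, counts that are no higher than or near the 56.5% and 58.6% of all genes called in either direction. Among them Mrc1, the mannose receptor, fell from 199 to 1.23 CPM at 20 h (-7.35, adjusted p = 4.66e-31), Irf4 fell from 1.24 to 0.607 CPM (adjusted p = 0.00242), and Il4ra rose at 3 h (0.73, adjusted p = 8.97e-06).

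Across the 16 group means of log2 CPM, members resembled each other to different degrees. Over these points, which share hk S.E. as their main contrast, Ccl2 and Ccl7 had the highest Pearson r of any member pair (0.997), each being the other's closest gene of all 14537. Ccl3 was closest to Tnf (0.997) and Dcbld2 (0.997), Ccl4 to Wdr59 (0.998) and Rhbdf2 (0.995), and Ccl5 to C3 (0.998) and Fpr2 (0.997). Ccl12 was closest to Alcam (0.989) and Mmp25 (0.984), Ccl9 to Snn (0.993) and Slc39a1 (0.992), Ccl22 to Dcbld2 (0.995) and Bcl2a1b (0.993, a gene with near-identical copies whose counts are uncertain), and Ccl17 to Cish (0.983) and Pik3r6 (0.983). After each other, App was closest to Ccl2 (0.988) and Il1rn to Ccl7 (0.992). The lowest r between members was that of Ccl5 and Ccl9 (0.370), the pair that parted at 20 h, and that of Ccl7 and Ccl9 was 0.462. These values describe 16 points dominated by hk S.E. and carry no test.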

How the data were processed

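The deposited values are raw read counts per gene that the authors made from stranded mRNA libraries of 64 BMM samples. The sources used here name bcl2fastq 2.19.0.316, HISAT2 2.1.0 and HTSeq 0.9.1 with the mm10 genome. HTSeq counted uniquely aligned reads, and 74.9% to 80.8% of reads fell on genes; the remainder stayed out of library sizes. The authors also deposited variance-stabilised values on a log2 scale, made with DESeq2, which were used for the limma alternative. The number of columns of other samples was 0.

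Samples were grouped by their GEO labels into 16 groups of 4. Counts were tested with edgeR 4.0.16 (R 4.3.3): TMM scaling, filterByExpr with a minimum count of 10, 1 mean per group over all 64 libraries, the robust quasi-likelihood test with 48 residual degrees of freedom, and Benjamini-Hochberg adjustment over 14537 genes, called at 0.01. CPM were scaled to the TMM-adjusted library size. The levels per kb used the union of exons in GENCODE (GRCm38). With 4 mice of each genotype, the groups of a genotype share mice, and the main tests took the libraries as independent. Each group holds 4 libraries whose origin from separate mice is not stated, so p-values measure the spread between these libraries. Intervals and limits cover counting error or this spread only, and shallower libraries give wider ones for the rare Ccl17, Ccl22 and Ccl24.

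The 10 members and the gene lists were chosen with earlier results of these data known. All 10 members were named in every comparison; a listed gene was named where it passed the filter and was called in at least 1 activation comparison, and the 2 genes of highest Pearson r were named for each member. Alternatives were size-factor (RLE) and upper-quartile scaling, no filter, a minimum count of 50, DESeq2 1.42.0, limma 3.58.1 on variance-stabilised values, a fit of the compared groups alone, a threshold of 0.05, the number series of the library identifiers as a covariate, leaving out each library, and replicate blocks. Scripts were tested on simulated data. Some results of the lists and sequence windows are not reported here.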

Additional observations from a re-analysis of the deposited data

Results flagged for a closer look

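Within groups of 4 libraries, 140 sets of member values were checked for a library standing far from the other 3, and 2 were found, where chance marks about 1 in 20. Ccl4 in replicate 2 of unactivated Ahr-/- BMMs at 3 h was at 8.65 CPM, below the other 3 at 9.79 to 9.99 CPM. Ccl22 in replicate 4 of I3C-exposed activated Ahr+/+ BMMs at 20 h was at 28.6 CPM, above the other 3 at 12.4 to 13.7 CPM.

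The response to hk S.E. at 20 h differed between the genotypes for Ccl5, by -1.58 on the log2 scale (edgeR, adjusted p = 0.000346). The response also differed between 20 h and 3 h for 5 members in each genotype by the test of that difference. In Ahr+/+ BMMs the change was -2.01 for Ccl3, -3.25 for Ccl4, 2.25 for Ccl5, -3.38 for Ccl9 and -3.94 for Ccl12. In Ahr-/- BMMs it was -1.89 for Ccl3, -3.45 for Ccl4, 1.71 for Ccl5, -3.78 for Ccl9 and -5.18 for Ccl12. For Ccl12 the unactivated levels behind these values were below 1.1 CPM, which limits their precision.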

How the results depend on the processing

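No value of a member changed its direction past the threshold under any alternative. Fitting the compared groups alone moved the number of members called between genotypes from 4 to 0 in unactivated BMMs at 3 h, from 4 to 0 at 20 h and from 2 to 1 in activated BMMs at 20 h, and between the times in unactivated Ahr-/- BMMs from 2 to 1; the fit has fewer samples. Without the filter, the genotype count in unactivated BMMs at 20 h was 2. With the identifier series as a covariate, it was 1 in activated BMMs at 20 h, and the time count in unactivated Ahr-/- BMMs was 1. At a threshold of 0.05, the response to hk S.E. differed between genotypes at 20 h for 3 members. For these last 3 the cause was not tested.

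Leaving out single libraries gave 1 to 4 members for the genotype in unactivated BMMs at 20 h, 1 to 3 in activated BMMs at 3 h and 1 to 2 at 20 h, 1 to 3 for the response between genotypes at 20 h, and 1 to 2 for time in unactivated Ahr+/+ BMMs.

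Replicate numbers were shared by the groups, but the labels do not say that a number marks a mouse. Same-numbered libraries of a genotype and time had deviations from their group means with a median correlation of 0.407 in Ahr-/- (45 of 48 pairs above 0.1) and 0.146 in Ahr+/+ BMMs (32 of 48 pairs). For libraries with different numbers the medians were -0.285 (49 of 144 pairs above 0.1) and -0.0484 (2 of 144 pairs). Same-numbered libraries were thus the more alike. The main tests still did not pair the libraries, since no label ties a number to a mouse. With the replicate block within genotype, the response to hk S.E. differed between genotypes for 1 member at 3 h (Ccl4, 0.88, adjusted p = 0.00828) and for 5 at 20 h (0.213% and 10.2% of all genes), and BaP called 1 member in Ahr+/+ BMMs at 20 h (Ccl3, -0.49, adjusted p = 0.00643, 1.84% of all genes). The block within genotype and time gave the same 3 counts, and 1 member each for BaP against I3C in Ahr+/+ BMMs at 20 h (Ccl7, 0.45, adjusted p = 0.00384) and for the BaP effect between genotypes at 20 h (Ccl3, 0.63, adjusted p = 0.00759). The other counts stayed within 1.5 times the reported ones under either block. Depth limits Ccl17 and Ccl24, whose group sums were often under 30 counts.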

Other observations

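Within each genotype, the same replicate number was often the lowest for several members. Replicate 3 of Ahr+/+ BMMs had the lowest level in 8 of 8 groups for Ccl2, Ccl4 and Ccl7 and in 7 of 8 groups for Ccl5 and Ccl12. Replicate 2 of Ahr-/- BMMs had the lowest level in 8 of 8 groups for Ccl7 and Ccl12 and in 7 of 8 groups for Ccl2. Whether these libraries come from 1 mouse is not stated in the labels, and the values are given as a description.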
